A study of Mus musculus with 24 samples.

Results

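The retrotransposon-derived gag genes Rtl8a, Rtl8b, Rtl8c, Rtl5, Rtl6, Peg10 and Ldoc1 were followed in the fat pads of mice fed with or without vitamin B3. They were chosen by name, because Rtl8a had a low p-value between the diets in these same data. Their differences between the diets are therefore given as a description, with no test. Of the 7 genes listed, 6 had a probe on the array (11 probes), out of 20660 named genes and 55681 probes in all. Probes well above background in at least 6 of the 12 mice of a diet were 7 of the 11, of 5 genes (Rtl8a, Rtl8b, Rtl8c, Rtl6 and Peg10), against 24786 of all probes. No probe was matched to Rtl5, and Ldoc1 was above background in no mouse.

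The tissue was the epididymal white fat, a depot that lies along the epididymis, of 24 male C57BL/6JRcc mice aged 28 or 29 weeks. For 18 weeks, 12 of them ate a semi-synthetic diet with 30 mg nicotinamide riboside (NR), a vitamin B3 from which cells make NAD, in each kg (Ctrl NR), and the other 12 ate it with 0 mg (No NR). All mice had eaten the Ctrl NR diet for 2 weeks beforehand, lived singly, and received the same low tryptophan (0.115%, as calculated) and 40%, 19% and 41% of energy from fat, protein and carbohydrate. On the last night each mouse had 0.8 g of diet, then 1.8 g at the start of the light phase, and the tissue was taken after 4 h of refeeding. Each mouse's Cy5-labelled RNA was hybridised on an Agilent array of its own against a Cy3-labelled pool that also held other diets and 4 females. Levels are given as the log2 ratio of a mouse's signal to that of the pool, after normalization within each array, and differences are No NR minus Ctrl NR. A value of 0 means the ratio usual for probes of that brightness on the array. As all arrays had the same dye orientation, a probe's distance from 0 cannot be told apart from an effect of the dyes. The 24 arrays lay on 5 slides, which are also the 5 scans, each with mice of both diets.

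The share of an array's spots that stood well above background in Cy5 was between 34.5% and 50.7%. Adipocyte markers were all measured (12 of 12 kept, Adipoq, Plin1 and Lep among them), the cell type that defines the labelled tissue. So were 11 of 12 macrophage, 10 of 10 endothelial, 10 of 10 stromal progenitor, 6 of 6 mesothelial, 7 of 7 smooth muscle and pericyte and 6 of 8 lymphocyte markers. Of the skeletal muscle markers 1 of 5 was kept (Acta1), and of those of epididymis and testis 3 of 9 (the sperm genes Prm1, Prm2 and Tnp1). The mean of these 3 ran from -2.15 to 3.05 in Ctrl NR mice and from -2.57 to 1.14 in No NR mice. In bulk tissue, fewer cells of a type and less RNA per cell cannot be told apart.

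These genes descend from the gag gene of Ty3/gypsy-type retrotransposons, which encodes the protein shell of the element, and were kept in mammals after the elements had lost the ability to move. Peg10 is imprinted, expressed from the paternal copy, and needed for the placenta; its RNA still encodes a gag and a pol part joined by a ribosomal frameshift, and its protein can form capsid-like particles. Rtl8a, Rtl8b and Rtl8c are short, closely similar genes that lie together on the X chromosome and encode little more than a piece of gag, and the ubiquilin UBQLN2 acts on both PEG10 and RTL8 proteins.

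The RefSeq promoter table (GRCm38.p6) held 6 of the 7 genes, all but Peg10. The 250 bases before the start of the Rtl8 genes are shown because probes of the 3 genes were related across mice, as given further down. They lie at chrX:53643764-53644013 on the minus strand (Rtl8a), chrX:53670438-53670687 on the minus strand (Rtl8b) and chrX:53607672-53607921 on the plus strand (Rtl8c). Capitals in Rtl8b and Rtl8c mark the longest stretch that both hold letter for letter. In Rtl8a, capitals mark its CCAAT boxes, read on either strand.
Rtl8a: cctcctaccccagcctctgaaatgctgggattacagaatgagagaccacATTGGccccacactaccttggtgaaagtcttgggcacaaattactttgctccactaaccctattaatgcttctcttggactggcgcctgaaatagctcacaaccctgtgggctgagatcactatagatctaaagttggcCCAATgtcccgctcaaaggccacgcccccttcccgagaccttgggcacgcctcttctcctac
Rtl8b: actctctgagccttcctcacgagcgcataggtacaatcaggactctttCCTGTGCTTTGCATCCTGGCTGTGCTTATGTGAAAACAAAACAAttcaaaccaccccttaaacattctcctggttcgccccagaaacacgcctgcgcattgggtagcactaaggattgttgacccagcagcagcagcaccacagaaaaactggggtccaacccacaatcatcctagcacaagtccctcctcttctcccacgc
Rtl8c: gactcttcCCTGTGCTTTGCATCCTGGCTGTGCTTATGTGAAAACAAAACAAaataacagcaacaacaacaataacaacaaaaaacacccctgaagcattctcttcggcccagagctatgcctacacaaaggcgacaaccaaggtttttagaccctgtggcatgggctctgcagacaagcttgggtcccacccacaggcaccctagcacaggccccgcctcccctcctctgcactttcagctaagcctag

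The shared stretch was 44 bases long, from 202 to 159 bases before the start in Rtl8b and from 242 to 199 in Rtl8c. No other pair of the 6 genes shared more than 10 bases in a row on the same strand. Over the whole window Rtl8b and Rtl8c were 54.8% identical in an alignment, Rtl8a and Rtl8b 52.2%, and Rtl8a and Rtl8c 47.0%. Pairs with or among Rtl5, Rtl6 and Ldoc1 lay between 42.2% and 49.1%, a range that holds the value of Rtl8a with Rtl8c. CCAAT on either strand was found 2 times in Rtl8a and 1 time in Rtl8b, and in 33.8% of all 32851 promoters of the table. TATAAA, present in 12.4% of them, and GGGCGG, present in 32.7%, were in none of the 6. CTTCCGG was found 2 times in Rtl6 and is in 6.91% of all promoters, TGACG 1 time each in Rtl5 and Rtl6 and in 17.8% of all, and CACGTG, in 6.02% of all, in none of the 6. These matches describe letters in the window and were not related to binding.

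Rtl8a had 1 probe, well above background in all 24 mice. Its log2 ratio ran from -0.20 over a median of 0.16 to 0.63 in Ctrl NR mice, and from -0.41 over a median of -0.21 to 0.11 in No NR mice. In Ctrl NR, 11 of 12 mice lay above 0, and in No NR 11 of 12 lay below 0. The groups overlapped, with 9 Ctrl NR mice above the highest No NR mouse and 7 No NR mice below the lowest Ctrl NR mouse. The means were 0.20 ± 0.20 (SD, n = 12) and -0.21 ± 0.14 (SD, n = 12), a difference of -0.40 (SE 0.0733), or 0.756 times the Ctrl NR level. It was below 0 on all 5 slides, from -0.79 to -0.20, and on 4 of the 5 every Ctrl NR mouse lay above every No NR mouse. Among all kept probes with both diets on each slide, 7.20% were below 0 on all 5, and 0.339% had every Ctrl NR mouse above every No NR mouse on at least 4 of the 5; both belong to the contrast that chose the gene and are given as a description. In limma's test across all probes, 0% passed an adjusted p of 0.05 between the diets, and at an unadjusted p of 0.05 it was 14.0%, with 7.41% below 0.

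Rtl8b had 1 probe, also above background in every mouse. Its log2 ratio ran from -0.24 to 0.28 in Ctrl NR (median 0.02) and from -0.46 to 0.41 in No NR (median -0.18). The highest mouse of all was thus a No NR mouse, and 8 No NR mice lay below the Ctrl NR median. The difference was -0.15 (SE 0.0903), and it was below 0 on 3 of the 5 slides, ranging from -0.45 to 0.43.

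Rtl8c had 3 probes, of which 2 were kept. On the brightest, the log2 ratio ran from -0.18 to 0.37 in Ctrl NR (median 0.13) and from -0.32 to 0.28 in the 11 No NR mice measured (median -0.02); the spot of the other No NR mouse was marked as an outlier and left out. The groups covered nearly the same range, and the difference was -0.08 (SE 0.0744). The second probe gave means of 0.00 ± 0.24 and -0.13 ± 0.23 (SD, n = 12 each) and a difference of -0.13 (SE 0.0935). The third, above background in 2 mice of each diet, gave -0.13 (SE 0.0525) in the fit without a filter. Both kept probes lay below 0, and the third, near background in most mice, says little about direction. Across mice the probes agreed loosely: after removing diet means, the brightest and the second had r = 0.39 over 23 mice, and the third had r = -0.10 with the brightest and 0.28 with the second. The Rtl8 genes are closely similar, and the files do not show how far each probe also binds RNA of the other ones.

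Peg10 had 2 probes, both dim. The brighter was above background in 10 Ctrl NR and 7 No NR mice. Its log2 ratio ran from -0.43 over a median of 0.26 to 0.94 in Ctrl NR and from -0.47 over a median of -0.25 to 0.37 in No NR. In No NR, 11 of 12 mice lay below the Ctrl NR median, and the lowest Ctrl NR mouse lay close to the lowest No NR mouse. The means were 0.26 ± 0.42 and -0.13 ± 0.28 (SD, n = 12 each), and the difference was -0.39 (SE 0.135) on the scale of the background-corrected ratio, whose offset draws dim spots towards 0. It was below 0 on all 5 slides, from -0.67 to -0.23, as 7.20% of all probes were, and 0.529% of all kept probes had a difference this low or lower. With the processed signals of the scanner software the difference was -0.93 (SE 0.332), so that its size depended on the processing of this dim spot. The second probe, above background in 3 Ctrl NR and 2 No NR mice, gave -0.11 (SE 0.0742), and the probes had r = 0.27 across mice.

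Rtl6, formerly Ldoc1l, had 3 probes that did not go one way. The brightest ran from -0.15 to 0.80 in Ctrl NR (median 0.21) and from -0.18 to 0.84 in No NR (median 0.39), and 11 of 12 No NR mice lay above 0. Its difference was 0.17 (SE 0.113). The second gave means of -0.05 ± 0.20 and -0.11 ± 0.18 (SD, n = 12 each), a difference of -0.06 (SE 0.0774), and the third, above background in no mouse, 0.07. Across mice the 3 probes had r between 0.03 and 0.14 with each other. Which of them follows the Rtl6 transcript was not tested. Ldoc1, a leucine zipper protein of the same origin, gave a difference of 0.00 (SE 0.0570) on a probe that was above background nowhere, so no level can be read for it.

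Of the 7 kept probes 6 lay below 0 in the comparison of diets, beside 52.9% of all 24786 kept probes. This count includes Rtl8a, the gene chosen on this contrast. Its probes are not independent, as the brightest probes of the Rtl8 genes were related across mice. The confidence intervals of Rtl8b, of the kept Rtl8c probes and of the kept Rtl6 probes held 0. The count is therefore a description, and no fall of the family as a whole can be read from it. The 7 signs were the same without background subtraction, with processed signals, median centring, Cy5 alone, the authors' value table, slide as a block or array weights, and with each of the 24 mice left out in turn; cell type markers as covariates are given further down. With an array's log2 ratios centred on their median in place of loess, 66.2% of all probes lay below 0. The differences of Rtl8b and the brightest Rtl8c probe were then -0.35 (SE 0.246) and -0.30 (SE 0.262), while that of Rtl8a was -0.43 (SE 0.184).

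**Figure D1:**
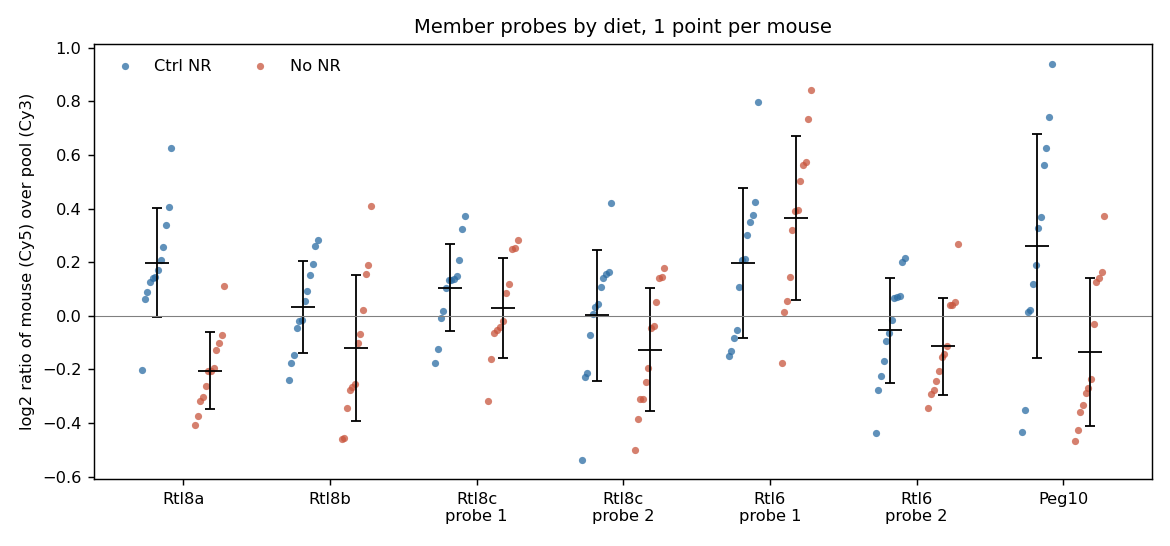
Log2 ratio over the pool (vertical axis) of the 7 kept probes, 1 point per mouse in order of value, with bars for mean and SD (n = 12 per diet, 11 for No NR in Rtl8c probe 1). For Rtl8a, the gene chosen on this contrast, 9 Ctrl NR mice sit above the highest No NR mouse. For Peg10 it is 4, and for any other probe at most 2.

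**Figure D2:**
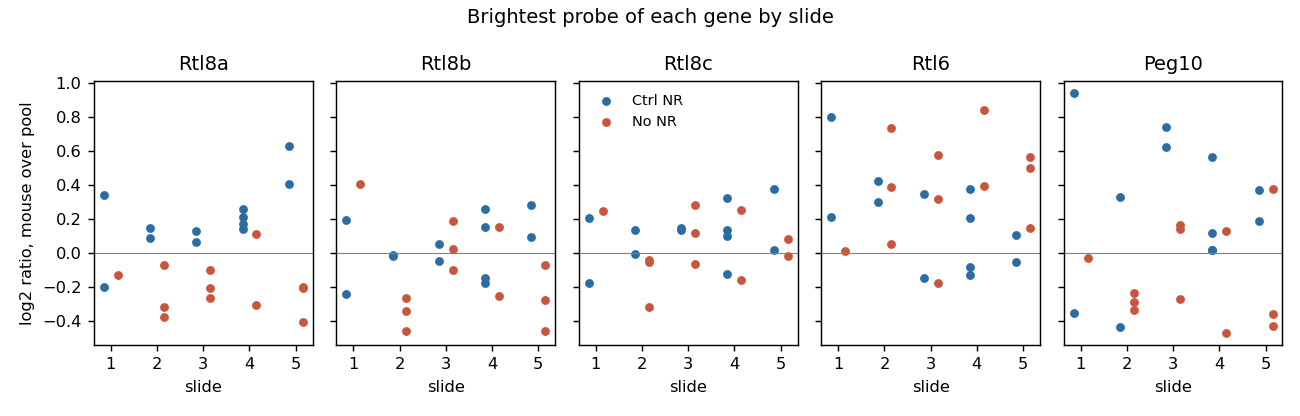
Log2 ratio over the pool of the brightest probe of each gene against the slide (1 to 5), 1 point per mouse. The diet difference is below 0 on all 5 slides for Rtl8a, the gene chosen on this contrast, and for Peg10, on 3 slides for Rtl8b, on 4 for Rtl8c and on 1 for Rtl6.

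Slides themselves were compared with limma's moderated F test, which the choice of genes did not use. None of the 7 member probes passed an adjusted p of 0.05 (lowest adjusted p = 0.774, for the second Rtl6 probe, whose unadjusted p of 0.0891 was the lowest too, so 0 passed at an unadjusted p of 0.05). Of all probes, 0.00807% passed the adjusted threshold and 6.99% the unadjusted one.

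Across mice of the same diet, the brightest probes of the 3 Rtl8 genes were positively related to each other, and that of Peg10 to those of Rtl8b and Rtl8c, while no relation of the Rtl6 probe passed the test. Each gene is read here through 1 probe: the Rtl8b and Rtl8c probes ran closer together (r = 0.71) than the 2 kept Rtl8c probes did (r = 0.39), the 2 kept Rtl6 probes had r = 0.03, and how far each Rtl8 probe also binds RNA of the other copies was not tested. After removing the mean of each diet, Rtl8b and Rtl8c had r = 0.71 and rho = 0.71 over 23 mice (adjusted permutation p = 0.00440 and 0.00250). Rtl8a had r = 0.59 and rho = 0.71 with Rtl8b over 24 mice (adjusted permutation p = 0.00463 and 0.00230), and r = 0.63 and rho = 0.58 with Rtl8c over 23 mice (adjusted permutation p = 0.00463 and 0.0113). Peg10 had r = 0.52 with Rtl8b and r = 0.54 with Rtl8c (rho = 0.56 and 0.57; adjusted permutation p = 0.0140 for each r and 0.0113 for each rho). With Rtl8a its r was 0.31 (rho = 0.25, adjusted permutation p = 0.302 and 0.412). The 4 pairs with Rtl6 had r from -0.21 to 0.14 (lowest adjusted permutation p = 0.489). In all, 10 pairs were tested, 2-sided, with 100000 shuffles of mice within diets, the brightest probe standing for each gene. Many other probes ran with these genes as closely. Of all other kept probes, 4.41% had an r with Rtl8b, and 5.64% with Rtl8c, at least as high as that of Peg10. Counted from Peg10, 1.22% had an r at least as high as that of Rtl8b, and 0.851% as that of Rtl8c. For the pairs of Rtl8 genes, counted from either gene, these shares lay between 0.545% and 2.75%.

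The 5 relations past the threshold were positive in each diet on its own: r within Ctrl NR and within No NR was 0.58 and 0.81 for Rtl8b with Rtl8c, 0.65 and 0.64 for Rtl8a with Rtl8b, and 0.63 and 0.66 for Rtl8a with Rtl8c. For Peg10 it was 0.55 and 0.59 with Rtl8b, and 0.56 and 0.56 with Rtl8c. Without the 2 mice farthest from the median, the 5 values of r lay between 0.46 and 0.71. With slide means removed as well, the 3 pairs among the Rtl8 genes kept an adjusted permutation p under 0.05 (r from 0.65 to 0.70), and those of Peg10 did not (r = 0.44 and 0.46). Genes on an array share its spot background, labelling and pool. With the Cy5 channel alone only the pairs of Rtl8a with Rtl8b (r = 0.49) and with Rtl8c (r = 0.57) passed. Rtl8b with Rtl8c had r = 0.54 there and fell just short (adjusted permutation p = 0.0518). Peg10 had r = 0.27 with Rtl8b and 0.37 with Rtl8c.

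**Figure D3:**
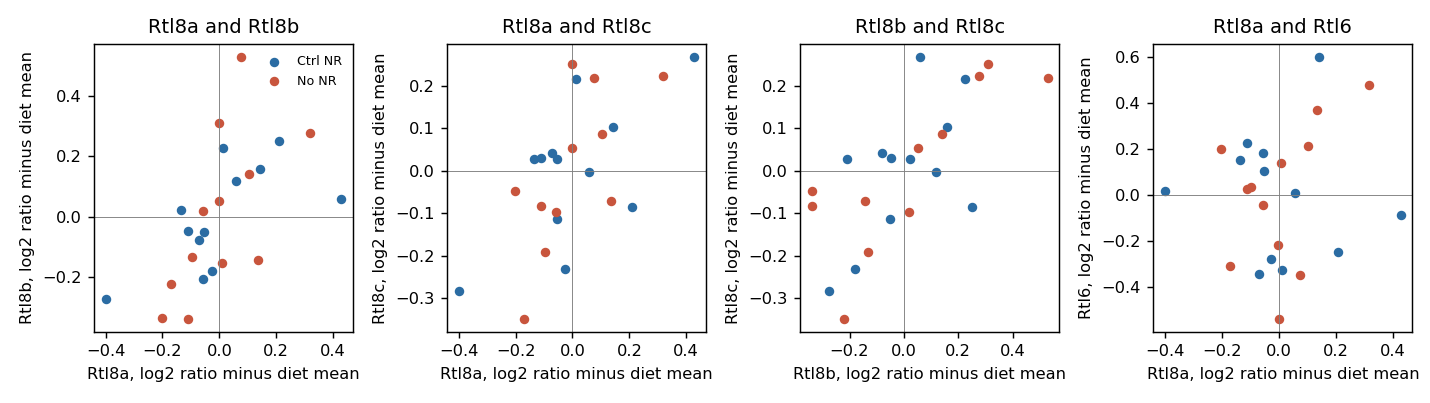
Log2 ratios minus the mean of the mouse's diet, 1 gene per axis and 1 point per mouse (24, or 23 with Rtl8c), for 4 pairs of genes. The 3 pairs of Rtl8 genes slope upward (r = 0.59, 0.63 and 0.71) and Rtl8a with Rtl6 does not (r = 0.14).

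The means of cell type marker lists also varied from mouse to mouse, and those of 4 lists were related to the Rtl8 genes. Each gene was related, within diets, to the mean of 8 lists of cell type markers (40 relations, 12 of them past an adjusted permutation p of 0.05). All 12 belonged to Rtl8a, Rtl8b and Rtl8c, each of which was positively related to the adipocyte and endothelial lists and negatively to the macrophage and stromal progenitor lists. The lists did not vary freely of each other. In each diet the mouse with the lowest adipocyte mean had the highest macrophage mean (-0.58 and 0.58 in Ctrl NR, -0.51 and 0.51 in No NR). How far the 4 lists vary apart was not tested, so the 12 relations are not separate findings. With adipocyte markers r was 0.57 for Rtl8a, 0.70 for Rtl8b and 0.80 for Rtl8c (rho = 0.65, 0.72 and 0.76; adjusted permutation p of r = 0.0125, 0.00208 and 0.000600, and of rho = 0.00673, 0.00200 and 0.00173). With macrophage markers r was -0.60, -0.60 and -0.80 (rho = -0.68, -0.62 and -0.74; adjusted permutation p of r = 0.0125, 0.0103 and 0.000400, and of rho = 0.00488, 0.00726 and 0.00173). The last of these has an unadjusted p of 1e-05, the smallest these shuffles can give. Many other probes of the array were related to these lists too. Of all kept probes outside the adipocyte list, 7.34%, 3.42% and 1.47% had an r with it at least as high as those of Rtl8a, Rtl8b and Rtl8c, and 6.04%, 5.87% and 1.24% had an r with the macrophage list at least as low.

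With endothelial markers r was 0.58, 0.57 and 0.71 for Rtl8a, Rtl8b and Rtl8c in that order (rho = 0.53, 0.57 and 0.63; adjusted permutation p of r = 0.0125, 0.0125 and 0.00208, and of rho = 0.0347, 0.0209 and 0.0104). With stromal progenitor markers it was -0.55, -0.58 and -0.72 (rho = -0.51, -0.52 and -0.77; adjusted permutation p of r = 0.0279, 0.0107 and 0.00173, and of rho = 0.0494, 0.0347 and 0.00173). An r this far in the same direction was found for 4.21%, 4.59% and 0.783% of all kept probes outside the endothelial list, and for 5.76%, 4.76% and 1.69% of those outside the stromal progenitor list. Without the 2 mice farthest from the median the 12 values kept their sign, and for Rtl8a they were 0.52 (adipocyte), -0.44 (macrophage), 0.44 (endothelial) and -0.44 (stromal progenitor). With slide means removed all 12 passed too, and so did Peg10 with the stromal progenitor list (r = -0.55), which made 13. Without that step, r for Peg10 was 0.38 with the adipocyte list and -0.47 with the stromal progenitor list (adjusted permutation p = 0.191 and 0.0978), and for Rtl6 0.10 and -0.06. No gene was related past the threshold to the mesothelial, lymphocyte, smooth muscle and pericyte or epididymis and testis lists.

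The sign of the relations to the macrophage and stromal progenitor lists turned with median centring. With the processed signals of the scanner software, all 12 relations past the threshold kept their sign and an adjusted permutation p under 0.05. With median centring in place of loess, Rtl8a had r = 0.68 with the macrophage list and 0.82 with the stromal progenitor list, and Rtl8b and Rtl8c turned positive with both lists as well. Under that scaling nearly every probe rose and fell with these genes: the median r of all other kept probes with Rtl8a was 0.83, where it was 0.00 with loess. The negative relations are thus relative to the other probes of an array.

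**Figure D4:**
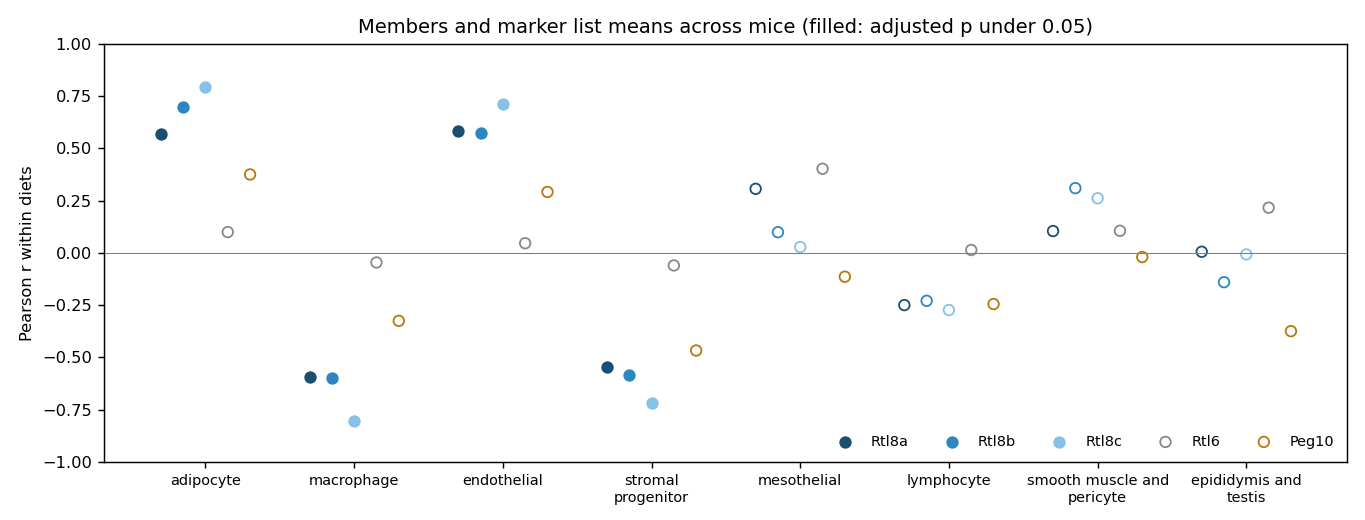
Pearson r within diets (vertical axis) of each gene's brightest probe with the mean log2 ratio of 8 marker lists, over 24 mice (23 for Rtl8c), with filled points at an adjusted permutation p under 0.05. The 12 filled points belong to Rtl8a, Rtl8b and Rtl8c and to the adipocyte, macrophage, endothelial and stromal progenitor lists.

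Once the mean of 1 of these 4 lists was removed together with the diet means, 0 of the 10 pairs of genes passed an adjusted permutation p of 0.05. At an unadjusted p of 0.05 there were 0, 2, 4 and 2 pairs with the adipocyte, macrophage, endothelial and stromal progenitor list removed. For Rtl8b with Rtl8c, r was 0.29, 0.39, 0.49 and 0.51 in that order, against 0.71 before. For Rtl8a with Rtl8b it was 0.34, 0.37, 0.39 and 0.40, against 0.59. As the lists were not shown to vary apart, the 4 removals are not separate results.

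The lists also lay apart between the diets, by less than the spread among mice. The macrophage list mean was -0.41 ± 0.70 in Ctrl NR and -0.15 ± 0.56 in No NR (SD, n = 12 each; range -1.41 to 0.58 and -1.05 to 0.51), the stromal progenitor mean -0.29 ± 0.34 and -0.09 ± 0.27, the endothelial mean 0.00 ± 0.18 and -0.11 ± 0.17, and the adipocyte mean 0.12 ± 0.41 and 0.06 ± 0.45. With each of the 4 in turn as a covariate, the diet difference of Rtl8a was between -0.39 and -0.34 and that of Peg10 between -0.38 and -0.29. That of Rtl8b was between -0.13 and -0.07. That of the brightest Rtl8c probe was between -0.05 and 0.01, above 0 with the endothelial and the stromal progenitor list. The part of cell make-up in the difference of Rtl8a was not tested beyond these values.

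The named genes whose log2 ratios ran most nearly with Rtl8a within diets, by Pearson r over 24 mice, were Slc12a5, a potassium-chloride cotransporter (0.78), Slc2a8, a glucose transporter (0.77), Slc1a1, a glutamate transporter (0.76), Cdh13, the T-cadherin that binds adiponectin (0.75), Kdr, a VEGF receptor of endothelium (0.75), and Chp1 (0.75). The most opposite were Kcne3, a potassium channel subunit (-0.78), Cenpk, a centromere protein (-0.76), Grk3, a receptor kinase (-0.74), Rasgef1a (-0.74), Fam13b (-0.73) and Exosc8, a subunit of the RNA exosome (-0.73). In this order Rtl8c stood at place 213 and Rtl8b at place 379 of 24783 probes, so that many probes ran with Rtl8a more closely than its own paralogs did. Nearest to Rtl8b were Hspb1, a small heat shock protein (0.90), Robo4, an endothelial receptor (0.85), and Uaca (0.84). Nearest to Rtl8c were Tns1, a tensin of focal adhesions (0.91), Slc6a13, a GABA transporter (0.91), and Ushbp1 (0.89). Nearest to Peg10 were Me1, the malic enzyme that makes NADPH for lipid synthesis (0.73), Iffo2 (0.68) and Cbx6, a Polycomb protein (0.66), and nearest to Rtl6 were Zc3h7b (0.80), Usp40 (0.79) and Bpgm (0.79). All of these share their arrays, and no test was made on them.

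Other genes of retroelement origin were few in this tissue. Of 16 listed, 13 were on the array and 4 were kept: Arc, Moap1, Pnma2 and Pnma3, of which Arc is the synaptic gene whose protein forms capsids. None passed an adjusted p of 0.05 between the diets in limma's fit. Pnma2, a gag-derived gene known from neurons, was 0.06 ± 0.28 in Ctrl NR and 0.54 ± 0.30 in No NR (SD, n = 12 each), a difference of 0.48 (SE 0.113, limma adjusted p = 0.0763). Moap1, a gene of the same family that modulates cell death, had a difference of 0.22 (SE 0.0813, limma adjusted p = 0.215). These 2 were above 0 at an unadjusted p of 0.05, as 6.63% of all probes were, and Arc (-0.03) and Pnma3 (-0.09) were not past it. The median of the 4 was 0.10, beside -0.01 over all probes. With median centring the difference of Pnma2 was 0.34 and none of the 4 had an unadjusted p under 0.05. Only 304 of all 24786 kept probes had one with that scaling, against 3480 with loess.

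Imprinted genes were counted beside Peg10. Of 32 listed, 22 were kept, with 34 probes, and none passed an adjusted p of 0.05 by limma. At an unadjusted p of 0.05, 3 of the 34 probes were above 0 and 2 below, near the 6.63% and 7.41% of all kept probes, and the median of the 34 was -0.02 beside -0.01 over all probes. Meg3, a maternally expressed long RNA, had differences of 0.46 (SE 0.122, limma adjusted p = 0.100) and 0.34 (SE 0.0909, limma adjusted p = 0.104) on its 2 probes. Slc22a18, a transporter of the Kcnq1 imprinted region, had -0.33 (SE 0.0871, limma adjusted p = 0.0952). Sgce, a sarcoglycan gene imprinted like Peg10 and lying head to head with it, was 0.08 ± 0.27 in Ctrl NR and -0.10 ± 0.28 in No NR (SD, n = 12 each), a difference of -0.19 (SE 0.106, limma adjusted p = 0.435). With median centring, 0 of the 34 had an unadjusted p under 0.05. Over all 24786 kept probes the count was 304 with that scaling, against 3480 with loess.

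Genes whose proteins handle PEG10 and RTL8 did not pass the test either, 0 of 4 at an adjusted and 0 of 4 at an unadjusted p of 0.05. Ubqln2, the ubiquilin named above, had a difference of -0.13 (SE 0.0795, limma adjusted p = 0.459, 95% interval -0.30 to 0.03), and Ubqln4, a related ubiquilin, 0.09 (SE 0.0923, limma adjusted p = 0.669). The 20 nearest named genes with a kept probe beside the Rtl8 cluster, 10 on each side in the order of the RefSeq table, had 22 probes, of which 0 passed the adjusted threshold. At an unadjusted p of 0.05, 3 of the 22 were above 0 and 2 below, beside 6.63% and 7.41% of all kept probes, and 11 of the 22 differences lay on either side of 0. Mospd1 had the lowest p, with -0.20 (SE 0.0729, limma adjusted p = 0.230), followed by Fam122b with 0.26 (SE 0.101, limma adjusted p = 0.240), and Ints6l had the largest difference, 0.28 (SE 0.118, limma adjusted p = 0.279).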

How the data were processed

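Total RNA of 24 fat pads was measured on Agilent 2-colour arrays, all in the same dye orientation. Per the submitters' processing notes and the file headers, spot intensity was extracted with Agilent Feature Extraction 10.7.3.1, and the deposited files hold median spot intensities and background-subtracted, dye-normalized ones. The authors' deposited value table of 26384 rows is on a log2 scale and followed log2 Cy5 intensity (r at least 0.990), not the ratio (r at most 0.180), with a median of 8.04 in every column, so no ratio to the pool can be read from it. Its normalization is not given in the sources used here.

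Background was corrected with normexp (offset 50), ratios were normalized by loess within arrays with control spots at weight 0, outlier spots were left out and spots of a probe averaged (limma 3.58.1, R 4.3.3). A probe was kept when well above background in Cy5 on at least 6 of 12 arrays of a diet; 0.106% of the kept values were missing. The files name probes by accession: 27235 of 55681 probes matched 1 symbol in the RefSeq table (GRCm38.p6; the headers name another build) and 28446 none.

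The diets were set against each other in limma (lmFit, eBayes) over all 24786 kept probes, with Benjamini-Hochberg adjustment at 0.05. The median SE of a difference was 0.0808, which depends on the number of arrays, the spread among mice and the processing. Relations across mice were tested by permutation within diets (100000 shuffles; numpy 2.4.6). In data simulated for the diet comparison (24786 probes, 200 changed, 5 runs), 87.6% of changes of 0.5 and 97.8% of changes of 1 on the log2 scale were called. These shares hold for the simulated data only. In the mice themselves 0 probes were called, with differences from -1.52 to 1.09. No probe's level is set against another's. No array pair was identical; mice are individual animals.

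The members and the lists were chosen with earlier results of these data known. Named are all members, from each list the 2 genes with the lowest p and the one with the largest difference, the 6 genes most like and most unlike Rtl8a and the 3 most like each other member, plus Sgce and Ubqln2. Arc, Pnma3 and the marker genes are named to complete small lists. Promoters come from the RefSeq table, aligned with Biopython 1.88.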

Additional observations from a re-analysis of the deposited data

How the results depend on the processing

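The alternatives were no background subtraction, the scanner software's processed signals, median centring, Cy5 alone, the authors' value table, outlier spots kept, slide as a fixed or random block, array weights, and each mouse left out. The difference of Rtl8a ran from -0.43 to -0.39 over the settings and from -0.44 to -0.36 over the mice left out, and that of Peg10 from -0.93 to -0.32 and from -0.46 to -0.33. All 7 kept probes kept their sign there. Quantile normalization of average intensities (Aquantile) leaves log ratios as they are, and a filter changes no probe's own difference, so neither bears on these values; Peg10 was not kept where signal was required on every array. The difference moved by more than the spread among mice for Peg10 with processed signals (-0.93) and for the brightest Rtl8c probe with median centring (-0.30). For Rtl8a the SE was 0.184 with median centring, against 0.0733 with loess. Median centring gave 0 probes at an unadjusted p of 0.05 among the other retroelement-derived and 0 among the imprinted genes, 9 related pairs of members in place of 5, and 30 relations to marker lists in place of 12. It turned r with the macrophage list to 0.68, 0.75 and 0.78 for Rtl8a, Rtl8b and Rtl8c. Their r with the stromal progenitor list became 0.82, 0.87 and 0.89. Under median centring 98.9% of all other kept probes had r above 0 with Rtl8a, against 50.2% with loess. The cause was not tested. Related pairs numbered 2 with Cy5 alone, 3 with slide means removed, and 0 with the adipocyte, 0 with the macrophage, 0 with the endothelial and 0 with the stromal progenitor list mean removed. The list means as covariates or removed were chosen after seeing the data. Over all probes, array weights gave 239 diet calls at an adjusted p of 0.05 in place of 0, and median centring 304 at an unadjusted p in place of 3480. Peg10 and the third Rtl8c probe are limited by their signal over background. No paired analysis was possible because the diets share no animal numbers.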
